A study of Schizosaccharomyces pombe with 12 samples.

Results

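Fission yeast cells (Schizosaccharomyces pombe) that carry the temperature-sensitive cohesin-loader allele mis4-367 were arrested in G1 at 25 °C and then moved to 37 °C, and the transcript levels before and after that shift were compared here across genes. The comparison rests on 6 of the 12 arrays of the series, the 3 labelled mis4-367 at 25 °C and the 3 labelled mis4-367 at 37 °C for 2 h. Every gene with a named S. pombe probe set was kept, through its brightest probe set over the 12 arrays, which gave 2896 genes. Of these, 2890 are protein-coding, out of 5124 protein-coding genes in the RefSeq table of the species.

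The genotype of the arrays compared is h- ura4+-pREP2-res1 mis4-367, and that of the other 6 arrays is h- ura4+-pREP2-res1 mis4+. All cells of both strains hold the pREP2-res1 plasmid, from which a C-terminal piece of the transcription factor Res1 is made once thiamine is withdrawn. They were grown at 25 °C in minimal medium (EMM2) with thiamine, washed into medium without it until division stopped, and collected before or after 2 h at 37 °C. The series has 3 independent inoculates and 3 arrays per group, so the spread between arrays holds biological and technical variation together. All groups share the plasmid, the loss of thiamine and the arrest, so none of these 3 factors was compared. The 37 °C samples were also taken 2 h later than the 25 °C samples, so warming and elapsed time cannot be told apart.

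Mis4 works with Ssl3 to load cohesin, the ring that holds sister chromatids together and that also touches gene regulation, and the mis4-367 protein loses function at high temperature. A move to high temperature is in itself a stress for fission yeast. Heat calls on the transcription factor Hsf1, which drives chaperone genes, and on the Sty1 MAP kinase, which acts through the factors Atf1 and Pcr1. Glucose is sensed through the G protein Gpa2 and protein kinase A, and nutrient shortage through pathways that lead to mating and meiosis. Cells blocked in G1 by the Res1 fragment have an impaired MBF, the transcription factor complex of Cdc10, Res1 and Res2 that opens the S phase programme.

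The 6 arrays were of similar brightness, with a median intensity over genes of 394 to 409. The SD over genes of the difference between an array and the mean of its other 2 replicates was 0.065 to 0.117 on the log2 scale, which is below the 0.202 of the third mis4+ array at 37 °C. That mis4+ array enters the tests of the mis4-367 shift through the shared estimate of the spread, and the tests of mis4+ and of the difference between strains directly. Probe sets with the names of another yeast species served as the background, and their 95th percentile, 3.42 on the log2 scale, was exceeded by 2879 of the 2896 genes in at least 1 group. The transcript of mis4 is no check of the strain, since the allele changes the protein. Its log2 intensity was 7.98, 7.93 and 7.86 at 25 °C and 8.15, 8.21 and 8.40 at 37 °C, a rise of 1.26-fold (adjusted p = 0.00142).

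The shift moved most of the measured transcriptome by small amounts and a short list of genes by large ones. At an adjusted p under 0.05 (limma, Benjamini-Hochberg over all genes), 1633 genes changed (56.4%), of which 966 rose (33.4% of genes) and 667 fell (23.0%). Of the 1633, 1307 (80.0%) changed by less than 1.5-fold, and the median size of a called change was 0.36 on the log2 scale. At least 2-fold differences were reached by 97 genes, 66 upwards (2.28%) and 31 downwards (1.07%), and at least 4-fold by 9 upwards and 5 downwards. Quantile normalization over the S. pombe genes alone gave 45 rises and 37 falls of at least 2-fold, so the share of rises went from 68.0% to 54.9%. Among all called genes it went from 59.2% to 49.7%. Arrays measure RNA shares, so less RNA per cell and fewer cells that make a transcript cannot be told apart.

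The values of the 3 arrays at 37 °C did not overlap those of the 3 at 25 °C for 2051 genes (70.8%), including 1616 of the 1633 called genes and all 97 of the 2-fold genes. The last genes inside the 2-fold limit were mam1 at a log2 change of 1.0007 and mpr1 at -1.0002. Just outside stood car1 at 0.9986 and rad26 at -0.9945, so the limit divides genes with nearly equal changes.

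Genes for sugars other than glucose, for meiosis and for stress metabolism supplied the largest rises. The top change was in say1, whose counterpart in Saccharomyces cerevisiae removes acetyl groups from sterols. Its log2 intensity was 3.34, 3.45 and 3.96 at 25 °C, near the background level, and 7.22, 7.44 and 7.37 at 37 °C, a rise of 13.6-fold (log2 change 3.76 ± 0.17, SE; adjusted p = 5.34e-09). mel1, which encodes a secreted alpha-galactosidase, went from 3.67, 3.96 and 3.68 to 6.47, 6.67 and 6.61, a rise of 7.03-fold. For both genes every array at 37 °C stood far above every array at 25 °C. The rule for naming the largest changes required arrays that do not overlap, so the separation itself was fixed by that choice. tms1, a predicted sugar alcohol dehydrogenase known as a stress gene, was well above background already at 25 °C, with 7.54, 7.54 and 7.68, and reached 10.36, 10.25 and 10.42 at 37 °C (6.73-fold, adjusted p = 1.40e-11). The kinase gene ppk31 was below the background on all 3 arrays at 25 °C (3.28, 3.20 and 3.30) and at 5.97, 6.06 and 5.95 at 37 °C, so its rise was at least 5.94-fold.

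The remaining 11 of the 15 largest rises lay between 1.78 and 2.52 on the log2 scale. hop1, which encodes a protein of the meiotic chromosome axis, rose 5.74-fold, and the meiotic septin gene spn5 rose 5.55-fold. rec15, needed for the DNA breaks that start meiotic recombination, was below background on all arrays at 25 °C and rose at least 3.42-fold. spk1, the MAP kinase of the pheromone pathway, rose from 6.18, 6.37 and 6.55 to 8.69, 8.78 and 8.90 (5.37-fold, adjusted p = 5.34e-09). Its 3 arrays at each temperature were spread over less than the gap between the temperatures. cta3, a cation pump of the P-type ATPase family, rose 3.94-fold, and gal10, the epimerase of galactose use, rose 3.43-fold. The other 5 were mug146, mug37, mug14, mug125 and mug4, genes named for a higher level in meiosis, with log2 changes of 2.48, 2.47, 1.88, 1.83 and 1.81.

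Of the 66 genes that rose at least 2-fold, 5 were at or below background on all 25 °C arrays. Besides ppk31 and rec15 these were pma2, a plasma membrane proton pump, and alr2 and mug95. Their bounds were at least 2.42-fold for pma2, at least 1.83-fold for alr2 and at least 1.84-fold for mug95. For the last pair the 2-fold size therefore rests on values below the background level.

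Falls were led by genes of glycerol and sucrose use, nitrogen uptake, pheromone and stress signalling, and none of the 31 genes that fell at least 2-fold ended at or below background on all 37 °C arrays. gut2, the mitochondrial glycerol-3-phosphate dehydrogenase, dropped from 11.15, 11.22 and 11.37 to 8.44, 8.33 and 8.56, which is 6.97-fold lower (log2 change -2.80 ± 0.07, SE; adjusted p = 2.56e-11). inv1, the secreted invertase that is repressed by glucose, dropped from 10.61, 10.59 and 10.90 to 8.32, 8.26 and 8.35 (5.25-fold lower). Both genes were far lower on every 37 °C array than on any 25 °C array, though the naming rule required arrays without overlap. mfm1, 1 of the genes for the M-factor pheromone, dropped from 10.64, 10.80 and 10.96 to 8.46, 8.58 and 8.46 (4.93-fold lower, adjusted p = 2.47e-08). urg2, a uracil phosphoribosyltransferase gene, dropped from 8.11, 8.17 and 8.01 to 6.06, 6.02 and 5.90 (4.28-fold lower).

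Next came pyp2, a tyrosine phosphatase that turns off Sty1, which dropped from 9.34, 9.41 and 9.50 to 7.41, 7.43 and 7.23 (4.17-fold lower, adjusted p = 2.86e-09). The ammonium transporter gene amt1 fell 3.76-fold, the kinase gene oca2 fell 3.63-fold and the predicted proline permease gene put4 fell 3.54-fold. srk1, a kinase that Sty1 activates, went from 9.05, 9.03 and 9.22 to 7.30, 7.34 and 7.21 (3.53-fold lower). That each array at 37 °C was below each array at 25 °C in these 5 genes was required by the rule for naming them. The remaining 6 of the 15 largest falls were the zinc finger factor rsv2 (-1.64), the stress-induced nuclear envelope gene ish1 (-1.57), the amino acid permease gene isp5 (-1.51), gcv1 of the glycine cleavage system (-1.43), and isp7 (-1.41) and rds1 (-1.39), all on the log2 scale.

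**Figure D1:**
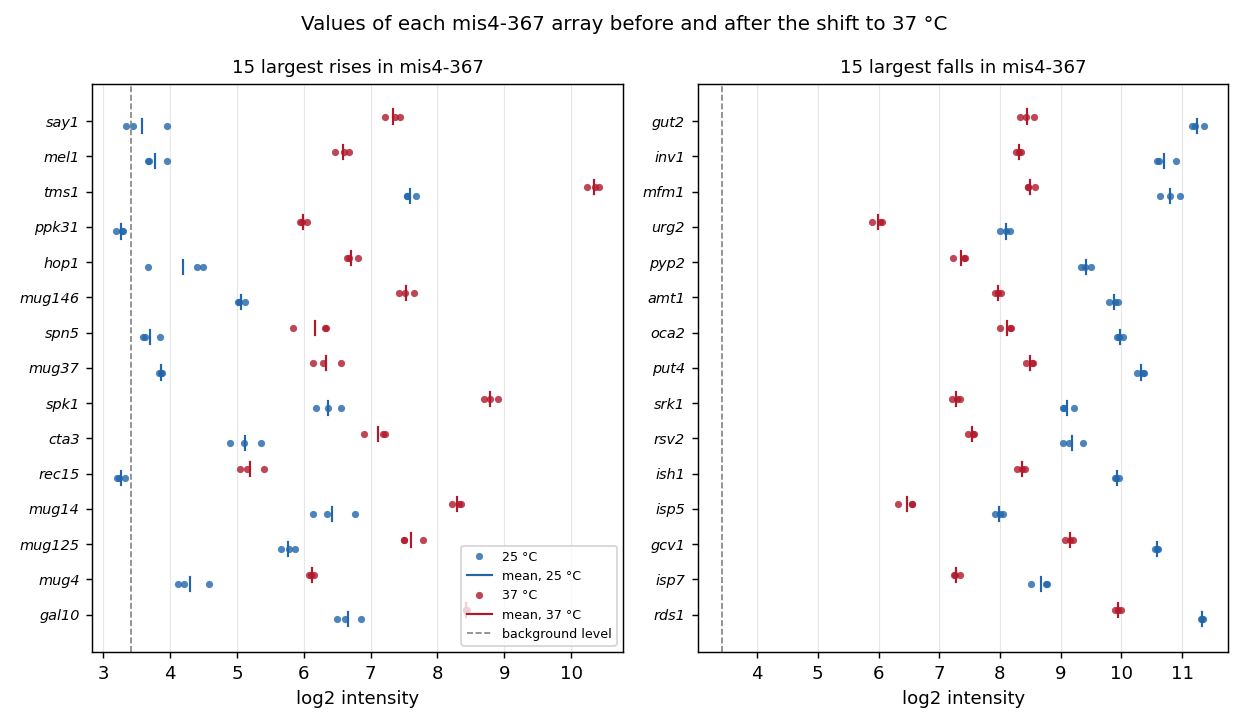
Log2 intensity (horizontal axis) of the 15 genes with the largest rises (left) and the 15 with the largest falls (right) on each of the 6 mis4-367 arrays. Points are arrays, short vertical lines are means of 3 arrays and the dashed line is the background level of 3.42. The 25 °C and 37 °C points do not overlap in any of these genes, as the rule for naming them required, and several of the risers start at or close to the background level, such as say1, ppk31 and rec15.

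Heat shock genes changed moderately, with more members up than down. Of 24 listed genes for cytosolic and nuclear heat shock proteins, 17 were measured. Among those 17, 10 rose (58.8%, against 33.4% of all genes), 2 fell and 5 did not pass the test. The median log2 change was 0.20, against 0.036 for all genes. The small heat shock protein gene hsp16 was at 11.59, 11.61 and 11.73 at 25 °C and at 12.67, 12.75 and 12.80 at 37 °C, a rise of 2.14-fold (log2 change 1.10 ± 0.05, SE; adjusted p = 7.47e-09). cns1, an Hsp90 co-chaperone, went from 7.94, 7.84 and 7.93 to 8.88, 8.96 and 9.02 (2.07-fold). Those were the only 2 members past 2-fold, and in both the groups were clearly apart. The kinase co-chaperone cdc37 rose 1.79-fold and the Hsp70-Hsp90 adaptor sti1 rose 1.37-fold, with replicates close together in both groups.

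Hsp90 itself moved little. Its log2 intensity was 12.69, 12.63 and 12.70 before and 12.77, 12.79 and 12.81 after the shift (1.09-fold, adjusted p = 0.0229), a call that was lost after re-centring the arrays, with a replicate block and without 3 of the single arrays, with adjusted p of up to 0.102. The Hsp70 gene ssa1 went the other way, from 11.45, 11.44 and 11.60 to 10.70, 10.65 and 10.82, a fall of 1.71-fold (adjusted p = 1.22e-04). The second Hsp70 gene ssa2 overlapped between temperatures, with a log2 change of -0.00 ± 0.04 (SE; adjusted p = 0.972). hsf1, the heat shock factor, was 1.39-fold lower at 37 °C (9.57, 9.53 and 9.55 against 9.10, 9.04 and 9.08). Further risers were hsp9, wos2, psi1, pss1 and mas5 (0.20 to 0.39 on the log2 scale), and bag101, bag102, sks2 and sgt1 did not pass the test.

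The Sty1 stress kinase pathway showed the opposite balance, with 18 of 32 members lower (56.3%, against 23.0% of all genes), 5 higher and 9 that did not pass. The median log2 change was -0.23, and -0.28 after quantile normalization. mpr1, the phosphotransfer protein that passes oxidative signals to the cascade, went from 7.94, 8.07 and 8.22 to 6.996, 7.11 and 7.12, a log2 change of -1.0002. sty1 was at 9.21, 9.29 and 9.24 and then at 8.80, 8.71 and 8.91, a fall of 1.36-fold (adjusted p = 4.31e-05), and its activating kinase wis1 fell by 0.22 on the log2 scale (adjusted p = 0.0284). The call of wis1 was lost without any 1 of 5 of the 6 mis4-367 arrays, with adjusted p of up to 0.0823. The target factors atf1 and pcr1 fell together, atf1 from 9.15, 9.06 and 9.09 to 8.16, 8.32 and 8.38 and pcr1 from 9.21, 9.18 and 9.19 to 8.18, 8.34 and 8.56. Both factors were thus lower on every 37 °C array, by 1.76-fold and 1.78-fold.

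Negative regulators and effectors of the kinase moved with it. Besides pyp2 and srk1, the phosphatase genes ptc1 (-0.78), pyp1 (-0.61) and ptc3 (-0.30) and the RNA-binding proteins csx1 (-0.81) and rnc1 (-0.40) fell on the log2 scale. The sensor kinase gene mak1 (0.48), the co-repressor tup11 (0.42), the oxidative stress factor pap1 (0.27) and vip1 (0.25) rose. atf31 also rose, by at least 1.11-fold, from below the background on all 25 °C arrays. wis4, win1 and mcs4, which stand above Wis1, did not pass the test, though mcs4 passed as a fall in some alternatives (adjusted p down to 0.00501).

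The core stress effectors, the genes that many stresses induce in fission yeast, split in both directions. Of 38 measured members 21 rose (55.3%, against 33.4% of all genes), 14 fell (36.8%, against 23.0%) and 3 did not pass. There were 5 rises and 6 falls of at least 2-fold, with 2.28% and 1.07% for all genes. Besides tms1, cta3 and mug14, sro1 went from 8.73, 8.93 and 9.19 to 10.41, 10.70 and 10.81 (3.23-fold). hri1, which encodes a kinase of the translation factor eIF2 alpha, rose 2.47-fold. The falls included gut2, pyp2, ish1 and rds1, together with srx1, the sulfiredoxin gene, and gld1, a glycerol dehydrogenase gene. srx1 went from 9.96, 10.09 and 10.16 to 8.74, 8.81 and 8.79 (2.45-fold lower). ctt1, the catalase gene, went from 11.04, 11.09 and 11.02 to 10.16, 10.003 and 10.12 (1.94-fold lower). Some of these genes also stand in other lists, since the lists overlap.

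Of 25 antioxidant genes 10 rose (40.0%, against 33.4% of all genes), 8 fell (32.0%, against 23.0%) and 7 did not pass, shares not far from those of all genes. The metallothionein gene zym1 (0.49), the transporter gene hmt1 (0.48) and the thioredoxin peroxidase gene tpx1 (0.29) rose, whereas gst3 (-0.64), grx4 (-0.52) and gst2 (-0.47) fell. In trehalose and glycerol metabolism 5 of 11 members rose (45.5%, against 33.4% of all genes) and 4 fell (36.4%, against 23.0%). The trehalose genes tpp1 (1.41-fold), tps1 (1.15-fold) and ntp1 (log2 change 0.21) rose, although ntp1 lost its call without the first or the third mis4-367 array at 37 °C (adjusted p of up to 0.0630), and the glycerol-forming enzyme gene gpd1 rose 1.16-fold. The glycerol-using enzymes gut2, gld1 and dak1 fell, the last by 0.29 on the log2 scale.

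**Figure D2:**
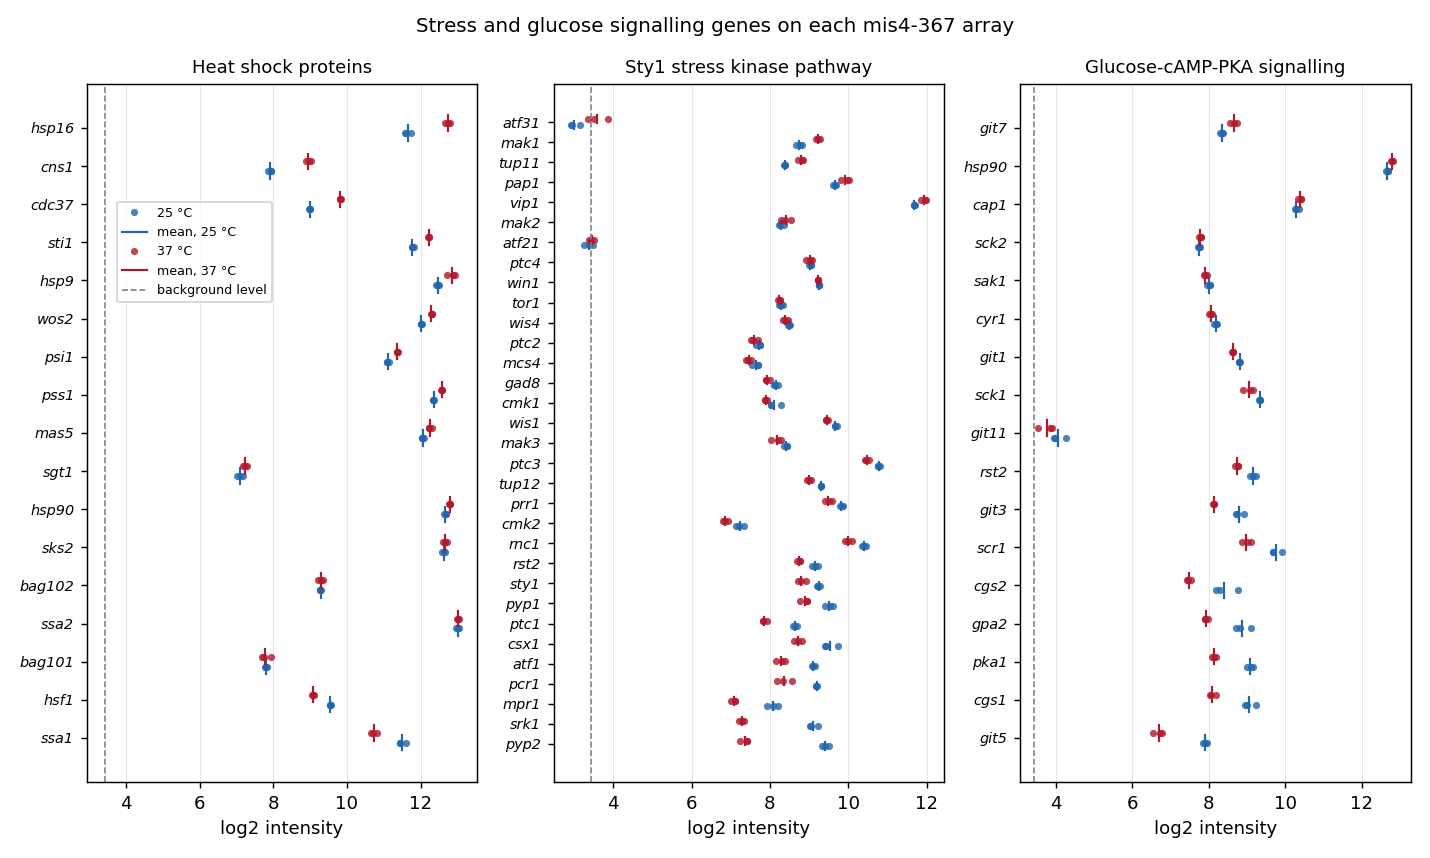
Log2 intensity (horizontal axis) on each of the 6 mis4-367 arrays for all measured members of the heat shock (17 genes), Sty1 pathway (32 genes) and glucose-cAMP-PKA (17 genes) lists, ordered by their change. Points are arrays, short vertical lines are means of 3 arrays and the dashed line is the background level. Heat shock genes with red points to the right of blue points outnumber those to the left, and the reverse holds for the other 2 lists.

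Genes of the glucose-cAMP-PKA pathway were mostly lower, from the receptor to the kinase. Of 17 members, 10 fell (58.8%, against 23.0% of all genes), 2 rose (11.8%, against 33.4%) and 5 did not pass, with a median log2 change of -0.31 and of -0.40 after quantile normalization. The receptor gene git3 fell 1.59-fold. The G protein genes fell too, gpa2 (alpha) from 8.71, 8.81 and 9.10 to 7.91, 7.97 and 7.89, and git5 (beta) from 7.84, 7.91 and 7.95 to 6.78, 6.73 and 6.55. Those are falls of 1.93-fold and 2.32-fold, with no overlap between temperatures. pka1, the catalytic subunit of protein kinase A, went from 9.09, 9.01 and 9.16 to 8.08, 8.14 and 8.18 (1.93-fold lower, adjusted p = 1.41e-07), and its regulatory subunit cgs1 fell 1.95-fold. The phosphodiesterase gene cgs2 fell 1.91-fold, with 25 °C arrays that were spread from 8.18 to 8.75. The adenylate cyclase gene cyr1 and its partner cap1 did not pass the test. Under some alternatives cyr1 passed as a fall (adjusted p down to 0.00617), and cap1 passed as a rise after quantile normalization (0.0104). The 2 members that rose were git7 (0.31) and hsp90, which is in both this and the heat shock list.

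Targets of that pathway moved unequally. The repressor scr1 fell 1.71-fold and the activator rst2 1.33-fold. fbp1, the gluconeogenic enzyme gene that protein kinase A represses, was at 6.35, 6.53 and 6.92 and then at 7.05, 6.97 and 7.22, a rise of 1.39-fold (adjusted p = 0.00646). Of the 20 genes for hexose transport, invertase and gluconeogenesis, 7 rose and 7 fell (35.0% each, against 33.4% and 23.0% of all genes) and 6 did not pass. The hexose transporter genes divided, with ght6 (3.35-fold), ght3 and ght2 up and ght1 (2.12-fold), ght5 (1.37-fold) and ght4 down. The calls of ght3 and ght4 were weak. That of ght3 (log2 change 0.67, adjusted p = 0.0287) was lost after quantile normalization, at 0.11 (adjusted p = 0.725), and without any 1 of 5 of the 6 mis4-367 arrays. That of ght4 (-0.39) was lost without the third array at 25 °C or the first or second at 37 °C, with adjusted p of up to 0.0939.

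Of the galactose genes, gal10 went from 6.62, 6.49 and 6.86 to 8.43, 8.45 and 8.43, and the galactokinase gene gal1 from 7.50, 7.57 and 8.04 to 9.09, 9.18 and 9.31 (2.81-fold). gal7, the third enzyme of the route, had a log2 change of 0.17 (adjusted p = 0.0837). In glycolysis 10 of 15 genes did not pass the test (33.3% called, against 56.4% of all genes). The exception in size was the second enolase gene eno102, which went from 4.88, 4.88 and 4.90 to 6.25, 6.26 and 6.50 (2.73-fold), while eno101 did not pass.

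Several of the 2-fold genes are neighbours in the reference annotation. Pairs of adjacent genes that both rose at least 2-fold were gal10 with gal1, mel1 with pcm2 (log2 change 1.63, a protein repair methyltransferase), mug14 with the vacuolar ABC transporter gene abc3 (1.61), and mug146 with ght6 (1.74). Another pair went in opposite directions, with oca2 at -1.86 and its neighbour gnr1 at 1.12. Whether neighbours share a change more often than other genes was not tested.

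Most called genes of amino acid and purine synthesis were falls. Of 64 measured members, 36 fell (56.3%, against 23.0% of all genes), 4 rose and 24 did not pass, with a median log2 change of -0.21 and of -0.15 after quantile normalization. The count of falls was 36 to 40 under all alternatives run. gdh1, the NADP-dependent glutamate dehydrogenase gene, went from 12.18, 12.20 and 12.22 to 11.13, 11.09 and 11.12 (2.12-fold lower, adjusted p = 2.05e-08). ser2 (-0.91) and arg4 (-0.75) came next, and ade7 (0.60) was the largest rise. gcv1 and gcv2 (-1.17) of glycine cleavage, which are outside the list, fell as well.

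Among genes for the uptake of nitrogen sources, amt1 and the amino acid and peptide permease genes isp5 and isp4 fell, isp4 from 8.49, 8.62 and 8.61 to 7.51, 7.54 and 7.53. The vacuolar amino acid transporter gene fnx1 fell by 0.38 on the log2 scale. An amino acid permease gene that rose was aat1 (0.80).

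Cytosolic ribosomal protein genes hardly moved. Of 113 members, 96 did not pass, 13 fell (11.5%, against 23.0% of all genes) and 4 rose (3.54%, against 33.4%), with a median log2 change of -0.03. The 2 largest changes were rises, of rpl3002 from 10.71, 10.73 and 10.65 to 11.29, 11.42 and 11.30 (1.55-fold) and of rpl102 from 10.83, 10.86 and 10.80 to 11.32, 11.29 and 11.31 (1.39-fold). The largest falls, rps1401 and rps2601, were of 0.37 on the log2 scale. The number that fell was 26 with trended and robust variance, 24 without the third mis4+ array at 37 °C, and 7 or 8 without any 1 array at 25 °C.

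Translation factor genes fell in 12 of 29 cases (41.4%, against 23.0% of all genes) and rose in 3, the largest being hri1. Of 121 listed ribosome biogenesis genes only 53 were measured, of which 23 rose (43.4%, against 33.4% of all genes) and 9 fell. The highest were dbp8 (0.67), esf2 (0.59) and rlp7 (0.55), and the lowest was gar2 (-0.52). Among RNA polymerase I and III genes 12 of 38 rose (31.6%, close to the 33.4% of all genes) and 5 fell (13.2%, against 23.0%), and the largest change was a fall of spp27 (-1.13), a factor for ribosomal DNA transcription. Another fall was of maf1 (-0.64), the repressor of polymerase III. For RNA polymerase II and its factors 17 of 35 genes rose (48.6%, against 33.4% of all genes) and 3 fell (8.57%, against 23.0%), from tfb2 (0.70) to rpb9 (-0.87). The number of falls there depended on the arrays and the scaling, and lay between 1 and 9.

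Of 22 genes for mitochondrial chaperones, import and proteases, 13 fell (59.1%, against 23.0% of all genes), 3 rose and 6 did not pass. lon1, the matrix protease gene, went from 10.14, 10.13 and 10.02 to 9.19, 9.21 and 9.55 (1.71-fold lower), and the processing peptidase gene mas2 fell 1.68-fold. hsp10, the co-chaperonin gene, rose instead, from 11.43, 11.47 and 11.47 to 11.93, 11.96 and 12.02 (1.43-fold), while its partner mcp60 did not pass the test. Respiratory chain and citric acid cycle genes fell in 20 of 54 cases (37.0%, against 23.0% of all genes) and rose in 9 (16.7%, against 33.4%). The lowest were cit1 (-0.60), sco1 (-0.60) and etp1 (-0.58). Mitochondrial ribosomal protein genes rose in 21 of 48 cases (43.8%, against 33.4% of all genes) and fell in 9. The endoplasmic reticulum folding genes rose in 9 of 16 cases (56.3%, against 33.4% of all genes), among them ogm1 (0.85), ero11 (0.66) and sec63 (0.55). Without the second or the third mis4-367 array at 25 °C that count was 5. bip1, the Hsp70 of this compartment, rose by 0.14. The call of bip1 (adjusted p = 0.0423) was lost with a replicate block and without any 1 of 9 of the 12 arrays, with adjusted p of up to 0.116.

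Most proteasome and ubiquitin genes, 32 of 46, did not pass, and 7 rose and 7 fell (15.2% each, against 33.4% and 23.0% of all genes). For the chaperonin TRiC and prefoldin, 7 of 10 members did not pass.

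Genes of iron uptake moved apart from each other. Of 28 iron and heme genes, 11 fell (39.3%, against 23.0% of all genes) and 4 rose. The ferric reductase gene frp1 went from 8.10, 8.11 and 8.28 to 7.09, 7.21 and 6.999 (2.09-fold lower), and the siderophore transporter gene str1 fell 1.73-fold. abc3, which encodes a vacuolar transporter, rose 3.05-fold, and sib1, which makes a siderophore, went from 9.17, 9.18 and 9.18 to 9.95, 9.999 and 9.98 (1.74-fold). The heme genes hem15 (-0.75), hem14 (-0.49) and hem12 (-0.35) fell, and hem13 (0.19) rose, a call that was lost without the second mis4-367 array at 25 °C or the second or the third at 37 °C, with adjusted p of up to 0.0573. Of 15 copper and zinc genes 6 rose (40.0%, against 33.4% of all genes) and 3 fell (20.0%, against 23.0%). The zinc transporter gene zrt1 was highest (0.82), and only 3 members rose without any of 5 single mis4-367 arrays. Thiamine-regulated genes, which the arrest medium concerns, gave 1 rise (bsu1, 0.65) and 3 falls among 9 members. Those shares were 11.1% and 33.3%, against 33.4% and 23.0% of all genes, and nmt1 did not pass.

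Genes listed under mating, pheromone response and nitrogen starvation changed in both directions and by large amounts. Of 50 members, 16 rose (32.0%, close to the 33.4% of all genes), 20 fell (40.0%, against 23.0%) and 14 did not pass. There were 4 rises and 5 falls of at least 2-fold, with 2.28% and 1.07% for all genes. Only mfm1 among the 5 falls is a pheromone gene, and the others were amt1, isp5, isp7 and isp4. Besides spk1, rgs1, a brake on the pheromone G protein, went from 6.71, 7.01 and 7.12 to 8.39, 8.60 and 8.59 (2.98-fold). mam3, an adhesion protein gene, rose 2.32-fold and mam1, the M-factor exporter gene, rose 2.00-fold. By contrast the M-factor genes mfm1 and mfm3 fell, mfm3 from 7.12, 7.05 and 7.10 to 6.16, 6.22 and 6.40 (1.77-fold lower), and mfm2 did not pass. The probe set of mfm3 is marked as matching more than 1 sequence. ste11, the master factor of mating, overlapped between temperatures with 8.99, 9.21 and 9.53 against 9.22, 9.10 and 9.24. The h- cells of this study are of 1 mating type, per their genotype label.

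Meiosis and sporulation genes had the highest share of rises among the 40 lists on the deposited scale. Of 80 measured members, 49 rose (61.3%, against 33.4% of all genes), 4 fell and 27 did not pass, with a median log2 change of 0.41. After quantile normalization over the S. pombe genes, however, 28 rose and 22 fell (35.0% and 27.5%), with a median of 0.12. Of all 2896 genes, 828 rose and 837 fell under that normalization. Of the 80, 19 were at or below background on all 25 °C arrays and 71 were above it in at least 1 group. Recombination and chromosome axis genes that rose were hop1, rec15, rec24 (1.18), mcp7, meu13, rec12 (0.76) and dmc1 (0.64). rec12 lost its call after quantile normalization, at 0.18 (adjusted p = 0.115). The regulators differed. mei2, which starts meiosis, rose from 8.28, 8.47 and 8.64 to 8.85, 9.004 and 8.98 (1.39-fold). mei4, the factor of the middle meiotic genes, stayed near background with 3.19, 3.12 and 3.34 against 3.12, 3.51 and 3.21. mei3 was below background at 25 °C and rose at least 1.25-fold.

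The cohesin subunit gene rec8, which replaces Rad21 in meiosis, was at 3.02, 2.89 and 3.24 and then at 2.99, 2.97 and 2.93, at or below background throughout. rec10, an axis gene, had a log2 change of -0.20 that did not pass the test, though it was -0.78 and passed after quantile normalization (adjusted p = 1.13e-04), as rec8 did at -0.31. mcp7 was uneven among replicates, with 3.93, 4.39 and 4.82 against 5.13, 5.36 and 5.99. It was the 1 gene among the 97 that lost its call in an alternative, with a log2 change of 0.57 and an adjusted p of 0.0866 after quantile normalization.

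The genes named mug, for a higher level in meiosis, were counted after their values had been seen. Of 91 measured, 44 rose (48.4%, against 33.4% of all genes) and 13 fell (14.3%, against 23.0%), with 14 rises and 1 fall of at least 2-fold and a median log2 change of 0.17. Quantile normalization gave 30 rises and 30 falls with a median of -0.01, beside 828 rises and 837 falls over all 2896 genes.

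The rises of dim genes extended beyond meiosis. When all genes were divided into 4 equal groups of 724 by their mean over the 12 arrays, 328 rose and 105 fell in the dimmest (45.3% and 14.5%). In the next groups 252 rose and 167 fell, then 236 and 191, and in the brightest 150 and 204 (20.7% and 28.2%). The dimmest group held 47 of the 66 rises of at least 2-fold. After quantile normalization over the S. pombe genes it gave 197 rises and 237 falls (27.2% and 32.7%), with a median of -0.04. Of the 2601 background probe sets 0 rose and 5 fell, with a median log2 change of -0.03. Most of these lie at or below the background level, which 2879 of the 2896 genes exceeded in at least 1 group. They therefore do not show what happened at the signal level of dim genes. The dimmest group held 63 meiosis genes, of which 40 rose and 1 fell, or 21 and 19 (33.3% and 30.2%) after quantile normalization. What part signal level plays in these counts was not tested. Of the 66 rises of at least 2-fold, 65 were still called as rises after quantile normalization, but only 44 were still 2-fold. All 31 falls were still called and 2-fold. Both sets were chosen for their size on the deposited scale, so the calls they kept do not measure how far they depend on the scale.

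**Figure D3:**
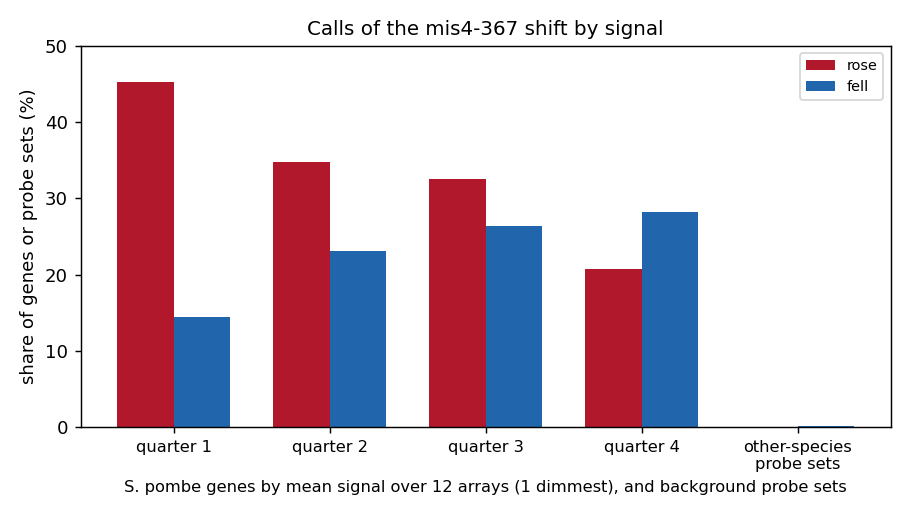
Share of genes that rose (red) or fell (blue) in mis4-367 after the shift, in % of each set (vertical axis), for S. pombe genes in 4 equal sets from dimmest to brightest mean signal and for the background probe sets. The share of rises goes down from 45.3% to 20.7% and that of falls goes up from 14.5% to 28.2% with signal, while 0 background probe sets rose.

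Genes that mark cell cycle stages changed by less than 2-fold, other than uve1 below. Of 32 MBF targets and regulators 7 rose (21.9%, against 33.4% of all genes), 9 fell (28.1%, against 23.0%) and 16 did not pass, with no member at 2-fold. cdc18, the replication licensing factor gene, went from 6.42, 6.58 and 6.65 to 6.95, 7.10 and 7.08 (1.41-fold), and mrc1 (0.49) and cdt1 (0.39) rose as well. The call of cdt1 was lost after quantile normalization, at 0.09 (adjusted p = 0.375), and without the first mis4-367 array at 25 °C or the third at 37 °C. The activator subunit gene rep2 (-0.56), cdt2 (-0.46) and ssb2 (-0.42) fell. res1, part of which the plasmid carries, was at 10.87, 10.90 and 10.96 and then at 10.47, 10.82 and 10.77 (log2 change -0.22, adjusted p = 0.060). Under the alternatives its value ran from -0.29 to -0.11, and it passed in 4 of them, with adjusted p down to 0.0318. cdc10, res2, cig2 and cdc22 did not pass, although res2 passed after quantile normalization, at -0.65.

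Core histone genes gave 2 rises (18.2%, against 33.4% of all genes) and 5 falls (45.5%, against 23.0%) among 11. The H4 gene hhf3, whose probe set is marked as matching more than 1 sequence, fell 1.45-fold, the H2A gene hta2 fell 1.44-fold, and the pair hhf2 (0.38) and hht2 (0.28) rose. Of 66 genes of mitosis and septation 21 rose (31.8%), 13 fell (19.7%) and 32 did not pass, shares close to the 33.4% and 23.0% of all genes. After quantile normalization the falls numbered 24 of the 66, beside 837 of all 2896 genes. sid1, a kinase gene of the septation network, went from 5.72, 5.82 and 5.74 to 6.64, 6.73 and 6.83 (1.96-fold), and the cyclin gene cdc13 fell by 0.46 on the log2 scale. DNA replication and repair genes rose in 34 of 81 cases (42.0%, against 33.4% of all genes) and fell in 13. The largest rises were cdc24 (0.94), rfc3 (0.91) and rad1 (0.77), and the largest falls were the nuclease gene uve1 (-1.06) and the checkpoint gene rad26 (-0.99).

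Cohesin genes, the complex that Mis4 loads, changed by less than 2-fold. Of 15 genes for cohesin, its loader and its regulators 5 rose (33.3%) and 4 fell (26.7%), close to the shares of all genes, with a median log2 change of 0.06 that was -0.02 after quantile normalization. Besides mis4, its partner ssl3 rose, from 8.64, 8.62 and 8.66 to 8.75, 8.86 and 8.96 (1.16-fold, adjusted p = 0.0281), a call that was lost without any 1 of 5 of the 6 mis4-367 arrays, with adjusted p of up to 0.114. Of the ring itself, psm1 fell 1.23-fold (adjusted p = 0.0208), a call that was lost without either of 2 single arrays, with adjusted p of up to 0.0645, while psm3, rad21 and psc3 did not pass. The release factor gene wpl1 went from 7.85, 7.95 and 8.04 to 7.30, 7.43 and 7.43 (1.47-fold lower), and the securin gene cut2 fell 1.43-fold. The shugoshin genes sgo1 (0.34) and sgo2 (0.33) rose, though sgo1 lost its call after quantile normalization, at 0.04 (adjusted p = 0.740). Of 16 condensin and Smc5-Smc6 genes 8 rose and 2 fell, with 33.4% and 23.0% for all genes.

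Genes for heterochromatin, RNA interference and telomere silencing rose in 24 of 45 cases (53.3%, against 33.4% of all genes) and fell in 1 (2.22%, against 23.0%), with a median log2 change of 0.23 that was 0.10 after quantile normalization. rik1, of the complex that methylates histone H3, went from 7.21, 7.24 and 7.14 to 8.01, 8.17 and 8.17 (1.89-fold), and its methyltransferase clr4 rose 1.44-fold. mit1 (0.64), chp1 (0.55) and rdp1 (0.55) rose, and swi6, taz1 and dcr1 did not pass. Under some alternatives swi6 and taz1 passed as falls and dcr1 as a rise, with adjusted p down to 0.0426, 0.0158 and 0.00844. The number of falls was between 0 and 6 under the alternatives.

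**Figure D4:**
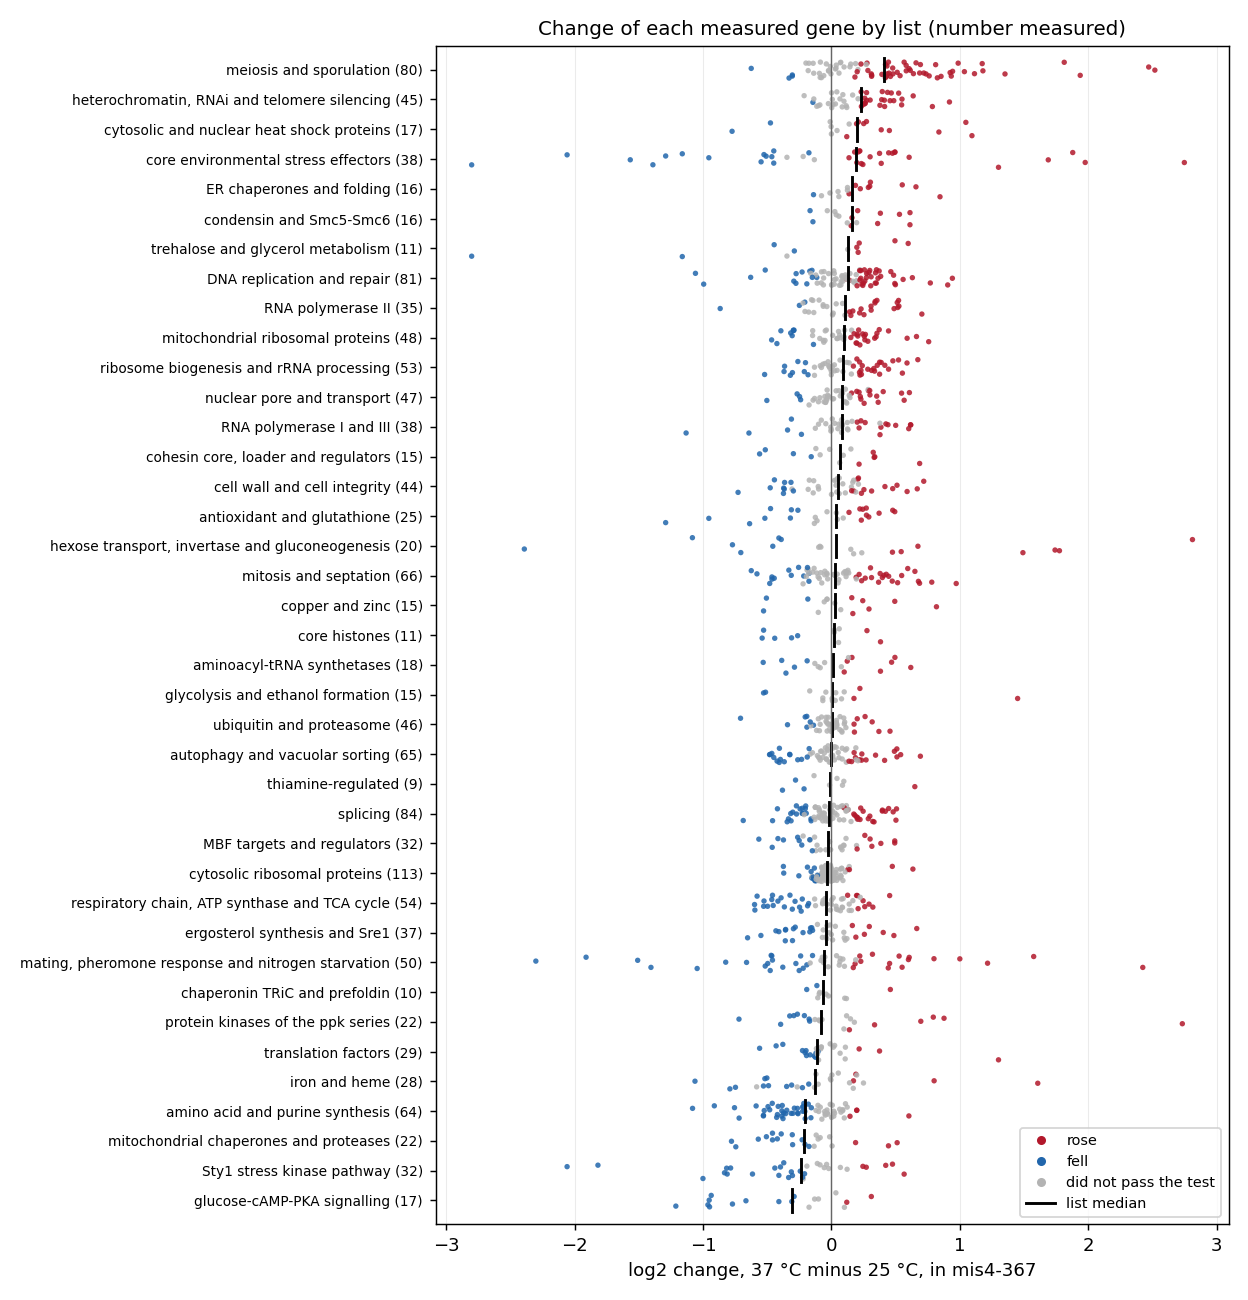
Log2 change from 25 °C to 37 °C in mis4-367 (horizontal axis) of every measured gene of each list with 5 or more members, with the number measured in parentheses. Points are genes, coloured by whether they rose, fell or did not pass the test, and black lines are list medians. The medians run from 0.41 for meiosis and sporulation to -0.31 for glucose-cAMP-PKA signalling, and the widest spreads are in the stress effector, hexose and mating lists.

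Outside the lists were 50 of the 97 genes with 2-fold changes, and 47 were in at least 1 list. Unlisted genes were picked for mention after their values had been seen. Risers among them included nab3 and rsd1, the alanine racemase gene alr2, the recombination gene rti1, the Ku subunit gene pku70 and the kinetochore gene nnf1. Fallers included the transcription factor genes rsv1 (-1.34) and rsv2. In wider processes, 21 splicing genes rose and 19 fell of 84 (25.0% and 22.6%, against 33.4% and 23.0% of all genes). Of 65 autophagy and vacuolar sorting genes 15 rose and 15 fell (23.1% each). Of 44 cell wall genes 13 rose and 9 fell (29.5% and 20.5%). Of 37 ergosterol genes 7 rose (18.9%, against 33.4% of all genes) and 15 fell (40.5%, against 23.0%). Among 47 nuclear pore and transport genes 15 rose (31.9%, close to the 33.4% of all genes) and 4 fell (8.51%, against 23.0%).

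The mis4+ strain went through the same shift, on arrays of its own, which gives the same comparison without the allele. In mis4+, 1601 genes changed (55.3%), 968 up and 633 down. Changes called in both strains in the same direction numbered 1350, which is 82.7% of the calls in mis4-367 and 84.3% of those in mis4+, and 0 genes were called in opposite directions. All 97 genes past 2-fold in mis4-367 were called in the same direction in mis4+, where 80 of them were also past 2-fold (57 up and 23 down). Across genes the changes of the 2 strains had a Pearson r of 0.959, given as a description, since genes are not independent and both strains share 1 normalization.

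The list medians were close as well. They were 0.20 in mis4-367 and 0.23 in mis4+ for heat shock proteins, -0.23 and -0.17 for the Sty1 pathway, -0.31 and -0.31 for glucose signalling, -0.21 and -0.20 for amino acid and purine synthesis, and 0.41 and 0.39 for meiosis. The 4 largest mis4-367 changes had mis4+ counterparts of 3.40 for say1, 2.19 for mel1, -2.81 for gut2 and 2.30 for tms1 on the log2 scale.

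The difference between the strains' responses was tested directly, and 0 genes passed (0.00%), with 141 at an unadjusted p under 0.05 and a median standard error of the difference of 0.09. The smallest adjusted p was 0.125, shared by 4 genes, mug184, mel1, tms1 and aes1. mel1 changed by 0.62 ± 0.11 (SE) more in mis4-367 than in mis4+, and tms1 by 0.45 ± 0.08 more. The mean of mel1 was lower in mis4-367 at both temperatures, at 3.77 against 4.92 in mis4+ at 25 °C and 6.58 against 7.12 at 37 °C. That of tms1 was 7.59 against 8.07 at 25 °C and 10.34 against 10.37 at 37 °C. mug184 rose in mis4-367 (0.44) and had a change of 0.03 in mis4+, and after quantile normalization its mis4-367 value was 0.13 and did not pass (adjusted p = 0.0606). aes1 was at 9.17, 9.02 and 9.02 and then at 9.07, 9.11 and 9.14 in mis4-367, a change of 0.04, against -0.51 in mis4+. None of these 4 differences passed the test over all genes, so they stand as values.

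Other differences were of similar size and had adjusted p of 0.721 or more. The largest in the direction of a higher change in mis4-367 after those 4, by p, was sid1 (0.35 ± 0.09, SE). In the other direction stood pof5 (-0.31 ± 0.07), tlh2 (-0.41 ± 0.10, whose probe set is marked as matching more than 1 sequence), isp5 (-0.37 ± 0.11), cip1 (-0.22 ± 0.06) and toa1 (-0.26 ± 0.07). mcp7 had the widest gap among the 2-fold genes, with 1.11 in mis4-367 and 2.12 in mis4+. Of the 97 genes with 2-fold changes in mis4-367, 61 had the larger change there, 41 of the risers and 20 of the fallers. At an unadjusted p under 0.05, 17 of the 97 differed, and 141 of all 2896 genes did. Since the 97 were chosen by their size in mis4-367, none of these counts over the 97 is evidence of a stronger response.

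**Figure D5:**
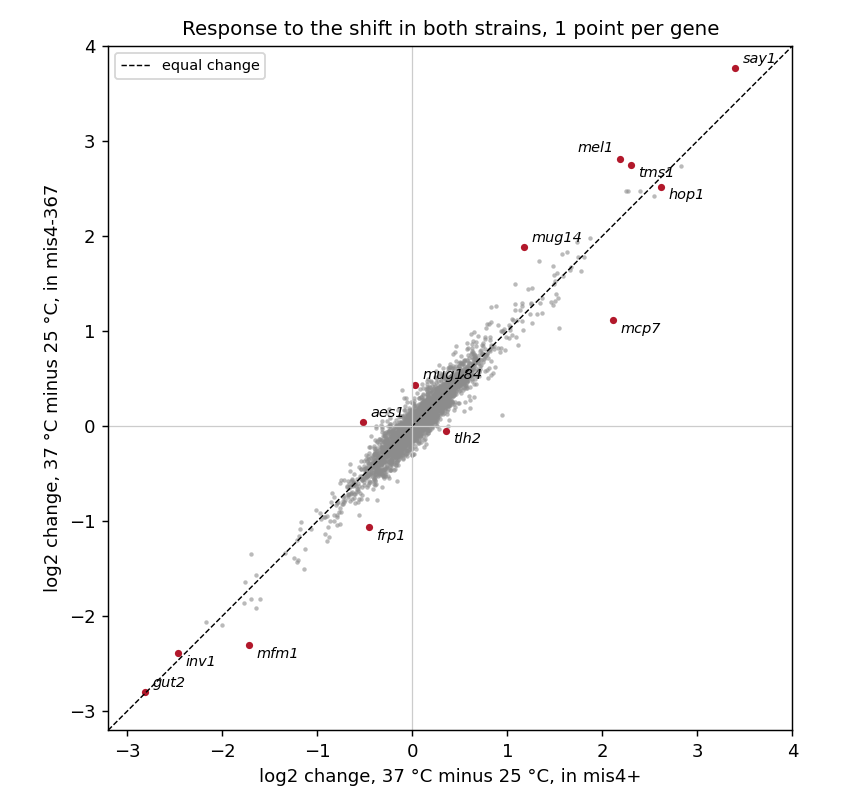
Log2 change from 25 °C to 37 °C in mis4+ (horizontal axis) and mis4-367 (vertical axis), with 1 point for each of 2896 genes and the line of equal change dashed. Genes lie along the line (Pearson r of 0.959), and labelled genes off it, such as mcp7 (1.11 against 2.12) and aes1 (0.04 against -0.51), did not pass the test of the difference.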

How the data were processed

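Total RNA of S. pombe was measured on GeneChip arrays that also carry probe sets of another yeast. The authors deposited 1 table with an intensity per probe set and array, on a linear scale (up to 12169), made with RMA per the submitters' processing notes (version: not given in the sources used here). The method gives all arrays 1 distribution over both species, which can flatten a broad change in S. pombe RNA and understates fold changes of dim probe sets. Deposited values were put on the log2 scale here, with no pseudocount. Of 10928 probe sets, 2914 matched 1 S. pombe gene of the RefSeq table (ASM294v3), 20 matched several, 2601 carried upper-case names not in it (background), 3 matched nothing, 5177 were unnamed and 213 were controls. For 14 genes with several probe sets the brightest was kept, and 13 genes are read by shared probe sets. All columns were assigned to samples.

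One limma fit (limma 3.58.1, R 4.3.3, python 3.11.15, matplotlib 3.10.9) of the 4 group means over 12 arrays, with no block, had 8 residual degrees of freedom. Contrasts were 37 °C minus 25 °C for mis4-367, the same for mis4+, and mis4-367 minus mis4+ of these changes. P-values were adjusted by the Benjamini-Hochberg method over 2896 genes, and rose, fell and changed are used for genes with an adjusted value under 0.05. On simulated data the fit recovered 76% of 1.25-fold, 96% of 1.5-fold and 100% of 2-fold changes, with 6 false calls, for the mis4-367 shift over 2896 genes. Only 50 genes per fold size were changed there, with independent noise of equal spread in all groups. In the data 56.4% of genes were called and arrays differed in spread, so these figures do not measure the real comparison. The number of arrays limits the precision, and no batch is named in the labels. Where all arrays of a group were at or below background, a fold is a lower bound against the background level (log2 3.42, intensity 10.7).

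Genes, lists and tests were chosen with earlier results of these data known. Genes are named by rule: the 15 largest rises and falls whose arrays do not overlap, up to 3 rises and falls per list, members whose role is explained, the 5 smallest p in each direction of the difference between strains, and mis4 and res1. The 5 genes of highest level are not described, since levels of different probe sets cannot be compared. A planned motif search in promoters was not run, as no sequence was used here, and no coordinates are given because the files name no build. Alternatives changed the arrays in the fit, scaling, background filter, probe set choice, pseudocount, prior variance, shared probe sets and single arrays.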

Additional observations from a re-analysis of the deposited data

How the results depend on the processing

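Of 301 called genes among the 333 named by rule or described, 272 kept call and direction in all 21 alternatives and 29 lost the call in some. The count of called genes in mis4-367 was 1838 with only the compared arrays, 1711 after re-centring, 1665 after quantile normalization and 1917 without the third mis4+ array at 37 °C. It was 1439 to 1581 without single mis4-367 arrays. Of the 1633 called genes 1416 were also called with the same sign after quantile normalization. Genes at 2-fold numbered 97, and 69 with a pseudocount of 16. The sign of slm5 turned after quantile normalization, to -0.0167, where it was not called. The sign of 9 uncalled genes turned too. That of tlh2 turned without the first mis4-367 array at 25 °C (-0.1041 to 0.0015 without single arrays), and after quantile normalization tlh2 was called at -0.5153 (adjusted p = 0.00301). Quantile normalization turned bag102 to -0.0001, cdc22 to 0.0021, mei4 to -0.1983 and ssa2 to 0.0451, and re-centring turned bag102 to -0.0089. Leaving out single arrays gave -0.0845 to 0.0421 for bag101, -0.0264 to 0.0302 for bag102, -0.0428 to 0.0317 for cdc22, -0.0546 to 0.1376 for mei4, -0.0317 to 0.0039 for rad21, -0.1682 to 0.0086 for rec8, -0.0272 to 0.0212 for ssa2 and -0.1852 to 0.0867 for ste11. Of the 32 uncalled genes, 18 passed in at least 1 alternative, among them gal7, nmt1, mcp60, psm3, psc3, cig2 and sgt1. For the difference between strains the count of 0 held in all but 1 alternative, so leaving out single arrays gave 0 to 1. Without the second mis4-367 array at 25 °C, mel1 passed (adjusted p = 0.0281). Replicate numbers gave correlations of deviations of 0.06 to 0.09 in mis4-367 and -0.09 to 0.03 in mis4+, too low to pair the arrays. With a replicate block 1594 genes were called in mis4-367, 1534 in mis4+ and 0 for the difference, and in mis4-367 each array correlated best with its own number, which is a hint only. Array signal near background limits the fold changes of dim genes.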

Other observations

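Probe sets with no gene name here hold further responses to the shift. Of 2163 such probe sets with a mean above background, 719 rose and 545 fell in mis4-367, 76 and 53 of them at least 2-fold, with a median log2 change of 0.02. These shares, 33.2% and 25.2%, stand beside 33.4% and 23.0% for the named genes.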
